A study of Arabidopsis thaliana with 12 samples.

Results

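The 10 genes described here encode the core machinery that carries plant cells into and through mitosis: 3 B1-type cyclins, 2 B2-type cyclins, 2 B1-type cyclin-dependent kinases (CDKs), 2 B2-type CDKs and the cytokinesis syntaxin KNOLLE. They were chosen by name with earlier results of these data known, so counts among them describe a chosen set. Each was found by its locus among the 37242 genes of every deposited table. All 10 also passed the filter on low counts, which left 19416 genes for testing. Poly(A) RNA of young leaves of *Arabidopsis thaliana* was sequenced from Col-0 at day 0, Col-0 at day 2, npf8.4-1 at day 0 and npf8.4-1 at day 2, with 3 libraries per group and 12 in all. Col-0 is the reference accession, and npf8.4-1 is a mutant of NPF8.4, a member of the peptide transporter family. All plants were first kept in hydroponics with 5 mM KNO3 for 15 days. Day 0 plants were taken then, and day 2 plants had spent 2 further days in medium without nitrogen. Each replicate was a pool of 15 plants.

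In plants, cyclins of the B class accumulate from late S phase to mitosis, bind CDKs and are then degraded, which sets the order of mitotic events. CDKA is present through the whole cell cycle, whereas the B-type CDKs are specific to plants and their transcripts rise toward mitosis. Many of these genes carry the mitosis-specific activator (MSA) element, whose core is AACGG and which is bound by MYB proteins with a triple repeat (MYB3R). In a young leaf, dividing cells are found in the proliferating zone and, later, in the stomatal lineage, so mitotic transcripts come from a minority of the cells sampled.

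The libraries held 28761674 to 34282716 exon reads. NPF8.4 itself had 174 to 568 reads in the Col-0 libraries and 10 to 47 reads in the npf8.4-1 libraries. Leaf mesophyll markers summed to between 29916 and 41845 CPM (read counts scaled to the size of the library) in every library. Of 8 shoot meristem markers, STM and WUS had no read in any library, and the summed level of the list was at most 0.699 CPM. Root markers were near 0, with RHD6 and EXPA7 at 0 throughout.

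The MSA core was searched on both strands of the 300 bases before the annotated start of each gene, in the TAIR10.1 assembly of RefSeq, whose coordinates for the 10 genes are those of the deposited tables. Of the 10 windows, 6 held AACGG or its complement CCGTT, and 4 of them held it more than once. Among 27443 protein-coding genes, 23.4% of windows of this length held the word at least once and 4.53% more than once. The longer word CNAACGG was in 4 of the 10 windows and in 5.24% of all. The E2F words TTTCCCGC and TTTGGCGC, which are typical of S phase promoters, were in none of the 10. They were in only 0.689% and 0.419% of all windows, so their absence from 10 windows is usual. No other E2F word was searched. The stretches below are printed because they show how the word sits in the genes with a match. They read 5′ to 3′ on the strand of the gene, and capitals mark the MSA core. The B1 cyclins with a match come first, with 1 stretch for CYCB1;1 (chr4:17624353-17624381, gene on the minus strand) and 2 for CYCB1;2 (chr5:1861830-1861858 and chr5:1861730-1861758, minus strand):
CYCB1;1: aaaacaatcagaCCGTTggggttcattta
CYCB1;2 far: tatttacagtccAACGGcctcattcgatg
CYCB1;2 near: atttaatcatctAACGGcaacagatgaaa
The window of the former held 3 matches and that of the latter 4, the highest number among the 10 genes. The matches printed end 57, 139 and 39 bases before the gene start. Far and near order only the stretches printed for a gene, and another CYCB1;2 match ends 7 bases before the start.

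The B2 cyclins, which lie on different chromosomes, each had 3 matches. The match farthest from the start, ending 133 bases before it in CYCB2;1 and 168 in CYCB2;2, is not printed. Its surroundings are also alike. A pair nearer the start is printed from each gene to show how alike the surroundings of the word are. The stretches are chr2:7663958-7663986 and chr2:7663987-7664015 (plus strand) for CYCB2;1, and chr4:16901460-16901488 and chr4:16901482-16901510 (plus strand) for CYCB2;2:
CYCB2;1 far: ccctcatgatccAACGGttatattctaaa
CYCB2;1 near: ttctaatcctagCCGTTccttttttaaaa
CYCB2;2 far: ccttcatgatccAACGGtcatcttaatca
CYCB2;2 near: ttaatcacctagCCGTTgctatttccttc
Around the AACGG match, 15 bases in a row (tcatgatccAACGGt) were identical between these genes. The remaining matches were single, in CDKB2;2 (chr1:7294819-7294847, minus strand) and in KNOLLE (chr1:2711001-2711024, minus strand):
CDKB2;2: agaaaaaaagaaCCGTTgaaaaaacatga
KNOLLE: caaatggacgacAACGGatacatc
No match was found in the windows of CYCB1;4, both B1-type CDKs and CDKB2;1. A match is a run of letters and not a measured binding site, and the absence of one says nothing about regulation of the gene from elsewhere.

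All 10 transcripts were lower at day 2, after 2 days without nitrogen, than at day 0 in both genotypes. The question of this comparison was how leaves respond to nitrogen depletion. In Col-0 the summed level of the 10 genes was 215, 256 and 340 TPM (the authors' level scaled to gene length and library size) in the day 0 libraries and 74.9, 112 and 111 TPM in the day 2 libraries. In npf8.4-1 the sums were 247, 270 and 363 TPM at day 0 and 68.3, 83.5 and 124 TPM at day 2. Every day 2 library was below every day 0 library of its genotype. Over the 10 genes, the median log2 fold change was -1.45 in Col-0 and -1.60 in npf8.4-1, beside medians of 0.02 and 0.03 over all genes tested.

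All 10 genes were lower at an adjusted p under 0.05 in each genotype (edgeR quasi-likelihood test), where 30.4% of all tested genes were lower in Col-0 and 31.6% in npf8.4-1. None of the 10 was higher, where 29.6% of tested genes were higher in Col-0 and 32.5% in npf8.4-1. At least 2-fold lower were 9 of 10 in Col-0, beside 12.6% of all genes, and 10 of 10 in npf8.4-1, beside 14.2%. For all 10 genes, the 3 day 2 libraries lay below the 3 day 0 libraries, which was so for 33.3% of tested genes in Col-0 and 34.4% in npf8.4-1. In bulk leaf samples, fewer dividing cells and less mitotic RNA per dividing cell cannot be told apart. Day 2 plants were also 2 days older than day 0 plants, so age and nitrogen depletion cannot be told apart either.

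**Figure D1:**
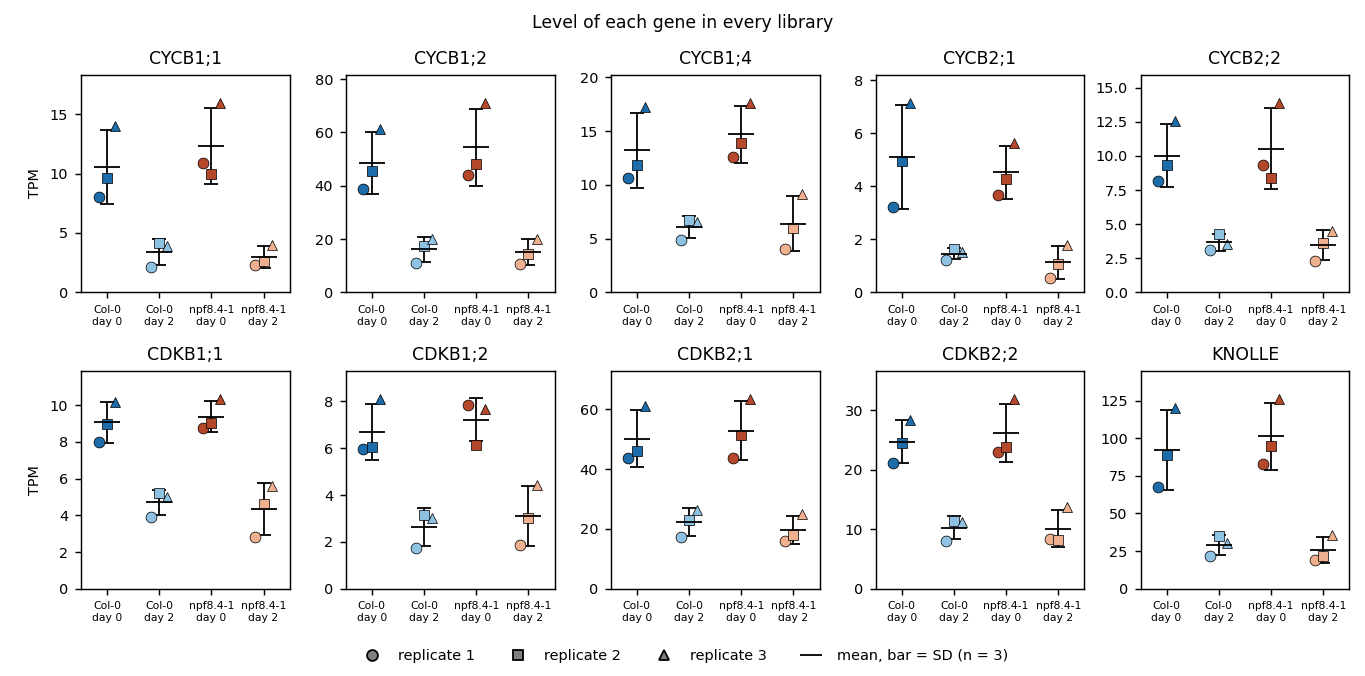
TPM of each of the 10 genes in every library, by group, with 1 symbol per replicate, the group mean as a horizontal line and the SD (n = 3) as a bar. In each panel the day 2 libraries lie below the day 0 libraries of the same genotype, and KNOLLE reaches the highest values, from 19.3 to 126 TPM.

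Of the B1-type cyclins, CYCB1;1 (AT4G37490, chr4:17621886-17624308, minus strand) is widely used as a marker of cells about to divide. Its level was 8.06, 9.62 and 14.03 TPM in Col-0 at day 0 and 2.16, 4.18 and 3.89 TPM at day 2. In npf8.4-1 it was 10.9, 10.001 and 16.0 TPM at day 0 and 2.27, 2.61 and 4.02 TPM at day 2. The third library was the highest of its group at day 0 in both genotypes, and the days did not overlap. The log2 fold change was -1.67 (SE 0.30, adjusted p = 0.000473, edgeR) in Col-0 and -2.14 (SE 0.30, adjusted p = 6.56e-05) in npf8.4-1. The latter, a 4.397-fold lower level with a 95% interval of 2.79 to 6.94, was the largest decrease among the 10 genes in the mutant.

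CYCB1;2 (AT5G06150, chr5:1859279-1861703, minus strand), the most abundant of the 3 B1 cyclins, stood at 38.6, 45.7 and 61.3 TPM in Col-0 at day 0 and at 10.95, 17.4 and 19.9 TPM at day 2. In npf8.4-1 the values were 44.0, 48.0 and 71.1 TPM and then 10.8, 14.4 and 20.17 TPM. Each day 2 value was under 21 TPM and each day 0 value above 38 TPM. The log2 fold change was -1.63 (SE 0.30, adjusted p = 0.000879, edgeR) in Col-0 and -1.94 (SE 0.30, adjusted p = 0.000236) in npf8.4-1. Of its distinct 50-base exon words, 11.3% also occur elsewhere in the nuclear genome, so part of its reads may have been shared with another locus. The other 9 genes had no such word.

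CYCB1;4 (AT2G26760, chr2:11401118-11403433, plus strand) changed least of the 3. It had 10.6, 11.81 and 17.2 TPM in Col-0 at day 0 and 4.88, 6.70 and 6.55 TPM at day 2, against 12.6, 13.8 and 17.6 TPM and then 4.04, 5.99 and 9.17 TPM in npf8.4-1. The highest day 2 value was that of the third npf8.4-1 library, and the days still did not overlap. The log2 fold changes were -1.17 (SE 0.28, adjusted p = 0.00325, edgeR) and -1.29 (SE 0.27, adjusted p = 0.00147).

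The B2-type cyclins are the other class of mitotic cyclins measured here. CYCB2;1 (AT2G17620, chr2:7664055-7666522, plus strand) was the least abundant of the 10 genes, with 19 to 242 reads per library. It had 3.23, 4.94 and 7.14 TPM in Col-0 at day 0 and 1.22, 1.63 and 1.53 TPM at day 2. The npf8.4-1 libraries held 3.68, 4.26 and 5.63 TPM and then 0.544, 1.06 and 1.79 TPM. The lowest value of all came from the first npf8.4-1 library at day 2, where 19 reads were counted. Its log2 fold change in Col-0, -1.85 (SE 0.36, adjusted p = 0.000772, edgeR), was the largest decrease among the 10 genes in that genotype, and the change in npf8.4-1 was -2.09 (SE 0.37, adjusted p = 0.000304).

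CYCB2;2 (AT4G35620, chr4:16901596-16904001, plus strand) had 8.17, 9.30 and 12.6 TPM in Col-0 at day 0 and 3.12, 4.30 and 3.54 TPM at day 2. In npf8.4-1 it had 9.37, 8.36 and 13.9 TPM and then 2.29, 3.61 and 4.53 TPM. The lowest day 0 library held at least 2.07 times the CPM of the highest day 2 library in each genotype. The log2 fold change was -1.51 (SE 0.25, adjusted p = 0.000225, edgeR) in Col-0 and -1.69 (SE 0.25, adjusted p = 7.67e-05) in npf8.4-1.

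The B1-type CDKs act at the entry into mitosis and in divisions of the stomatal lineage. CDKB1;1 (AT3G54180, chr3:20059671-20061488, plus strand) had 8.00, 8.99 and 10.2 TPM in Col-0 at day 0 and 3.91, 5.21 and 5.00 TPM at day 2. In npf8.4-1 it had 8.75, 9.04 and 10.3 TPM and then 2.83, 4.63 and 5.58 TPM. These were the tightest day 0 groups of the 10 genes in Col-0. Its decrease in Col-0 was the smallest of the 10, a log2 fold change of -0.996 (SE 0.21, adjusted p = 0.00123, edgeR) or a 1.99-fold lower level with a 95% interval of 1.46 to 2.73. In npf8.4-1 the log2 fold change was -1.20 (SE 0.21, adjusted p = 0.000262).

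Its paralog CDKB1;2 (AT2G38620, chr2:16152473-16154086, plus strand) had 5.98, 6.04 and 8.09 TPM in Col-0 at day 0 and 1.72, 3.16 and 3.02 TPM at day 2. The npf8.4-1 values were 7.84, 6.15 and 7.66 TPM and then 1.86, 3.03 and 4.44 TPM. The first library was the highest of the npf8.4-1 day 0 group for this gene, unlike for the other 9. The log2 fold changes were -1.39 (SE 0.29, adjusted p = 0.00120, edgeR) in Col-0 and -1.30 (SE 0.28, adjusted p = 0.00145) in npf8.4-1. Both B1-type CDK genes overlap a neighbour on the opposite strand, AT3G54190 by 71 bases and AT2G38630 by 281 bases, and those neighbours had log2 fold changes of -0.07 to 0.15 with no adjusted p under 0.05.

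The B2-type CDKs, whose transcripts are restricted to a short interval around mitosis and which are needed for shoot meristem organisation, were more abundant than the B1-type CDKs in every library. CDKB2;1 (AT1G76540, chr1:28720328-28722550, minus strand) had 43.6, 46.1 and 61.0 TPM in Col-0 at day 0 and 17.2, 23.0 and 26.4 TPM at day 2. In npf8.4-1 it had 43.7, 51.3 and 63.4 TPM and then 16.0, 17.9 and 25.1 TPM. The third library was the highest in all 4 groups. The log2 fold change was -1.22 (SE 0.23, adjusted p = 0.000738, edgeR) in Col-0 and -1.52 (SE 0.23, adjusted p = 0.000134) in npf8.4-1.

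CDKB2;2 (AT1G20930, chr1:7292389-7294746, minus strand) had 21.2, 24.6 and 28.4 TPM in Col-0 at day 0 and 8.05, 11.5 and 11.3 TPM at day 2, and 23.0, 23.8 and 31.9 TPM and then 8.39, 8.19 and 13.7 TPM in npf8.4-1. Every day 0 value was above 21 TPM and every day 2 value below 14 TPM. The log2 fold changes were -1.32 (SE 0.22, adjusted p = 0.000293, edgeR) and -1.47 (SE 0.22, adjusted p = 0.000105). Both B2-type CDK genes overlap a neighbour on the opposite strand with few reads, AT1G76530 by 44 bases (1 to 61 reads per library) and AT1G20925 by 192 bases (0 to 3 reads). AT1G76530 rose by 2.33 on the log2 scale in Col-0 (adjusted p = 0.0139, edgeR) and by 3.07 in npf8.4-1 (adjusted p = 0.00267).

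KNOLLE (AT1G08560, chr1:2709525-2711000, minus strand), the syntaxin that drives vesicle fusion at the forming cell plate, was the most abundant transcript of the 10 in every library. It had 67.5, 89.0 and 120 TPM in Col-0 at day 0 and 21.7, 35.1 and 30.3 TPM at day 2. The npf8.4-1 libraries held 83.0, 94.9 and 126 TPM and then 19.3, 22.1 and 35.6 TPM. The log2 fold change was -1.71 (SE 0.28, adjusted p = 0.000388, edgeR) in Col-0 and -2.07 (SE 0.29, adjusted p = 8.94e-05) in npf8.4-1. The gene overlaps NPQ1, the violaxanthin de-epoxidase gene on the opposite strand, by 464 bases. The strand setting of the counting was not given in the sources used, so reads of the overlap may not have been kept apart. NPQ1 stood at 137 CPM in Col-0 at day 0 and 112 CPM at day 2, a log2 fold change of -0.29 (adjusted p = 0.0366), and at 125 and 118 CPM in npf8.4-1, a log2 fold change of -0.09 (adjusted p = 0.500). Its part in the level of KNOLLE was not tested.

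**Figure D2:**
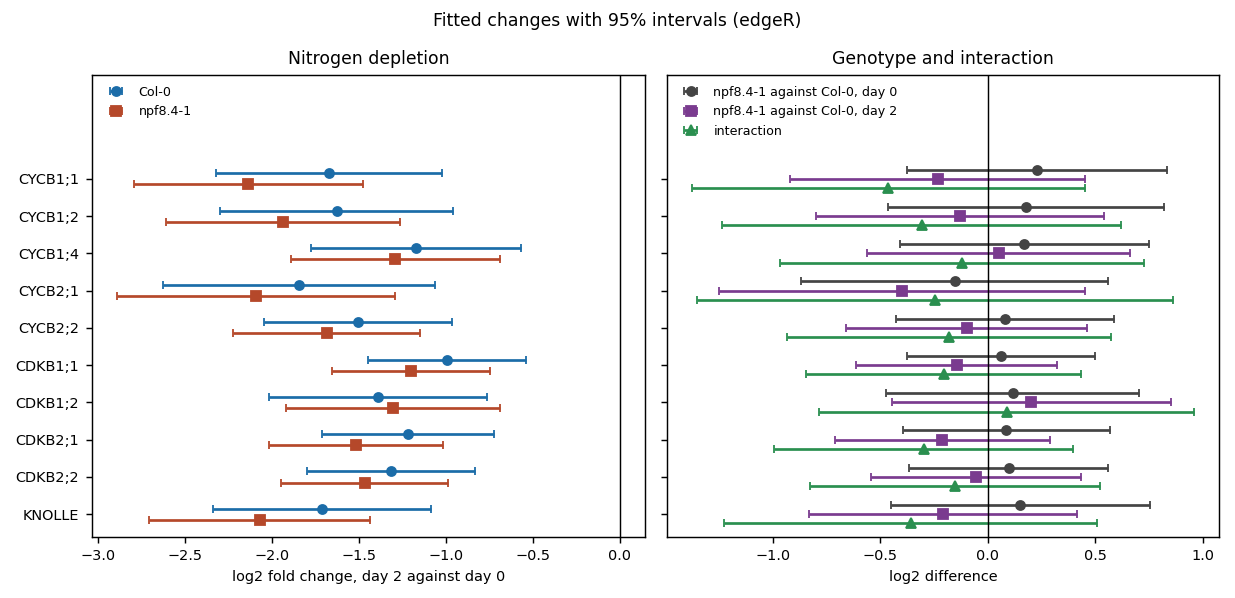
Fitted log2 changes of the 10 genes with 95% intervals from edgeR: on the left day 2 against day 0 in each genotype, on the right the genotype difference (mutant over wild type) on each day, and the interaction. All intervals on the left lie below 0, with estimates from -2.14 to -0.996, and all intervals on the right include 0.

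Per length, the order of levels over the 12 libraries was KNOLLE (mean 62.1 TPM), CDKB2;1 (36.2 TPM), CYCB1;2 (33.5 TPM), CDKB2;2 (17.8 TPM) and CYCB1;4 (10.08 TPM), followed by CYCB1;1 (7.31 TPM), CYCB2;2 (6.92 TPM), CDKB1;1 (6.87 TPM), CDKB1;2 (4.91 TPM) and CYCB2;1 (3.06 TPM). Over all libraries the ranges of all neighbours in this order overlapped, since each range spans both days. Within Col-0 at day 0, ranges did not overlap between the first and the second gene, between the third and the fourth, and between the fourth and the fifth. The second and the third gene overlapped in every group and changed places in npf8.4-1 at day 0. The places of the lower genes differed between days. CYCB1;1 was in place 6 at day 0 in both genotypes, in place 8 at day 2 in Col-0 and in place 9 at day 2 in npf8.4-1, and CDKB1;1 moved from place 8 to place 6 in both. The sixth, the seventh and the eighth gene of the pooled order were not separated in order by their ranges in any group.

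The 2 family ratios that include CYCB1;4 shifted with the day. The TPM ratio of CYCB1;1 to it was 0.722 to 0.906 in the 6 day 0 libraries and 0.436 to 0.624 in the 6 day 2 libraries, with no overlap. The mean log2 ratio was lower by 0.67 at day 2. Among other assignments of days within genotypes, only the one with all days swapped gave as large a difference (exact two-sided permutation test, 400 regroupings, p = 0.005, the smallest these can give, adjusted p = 0.015 over 6 pairs). For CYCB1;2 over the same gene, the ratio was 3.47 to 4.04 at day 0 and 2.20 to 3.04 at day 2. Its mean log2 ratio fell by 0.55 (exact permutation test, p = 0.005, adjusted p = 0.015), and for both ratios all 6 day 2 libraries were below all 6 day 0 libraries.

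The other 4 family ratios did not pass the threshold after adjustment. The mean log2 ratio of the B2 cyclins, the first over the second, fell by 0.41 (exact permutation test, p = 0.025, adjusted p = 0.05), and that of the B1-type CDKs was higher by 0.28 at day 2 (exact permutation test, p = 0.035, adjusted p = 0.0525). Each of these passed in 4 of 13 alternatives that left out libraries, with adjusted p from 0.015 to 0.048 (exact permutation test). The ratio of CYCB1;1 to CYCB1;2 differed by -0.12 (exact permutation test, p = 0.135, adjusted p = 0.162) and passed in 1 alternative, without replicate 2 of Col-0 at day 2 (adjusted p = 0.03). The ratio of the B2-type CDKs was close to 2 throughout, between 1.83 and 2.34, with a difference between days of 0.03 on the log2 scale (exact permutation test, adjusted p = 0.635). These pairs were compared after the values had been seen.

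**Figure D3:**
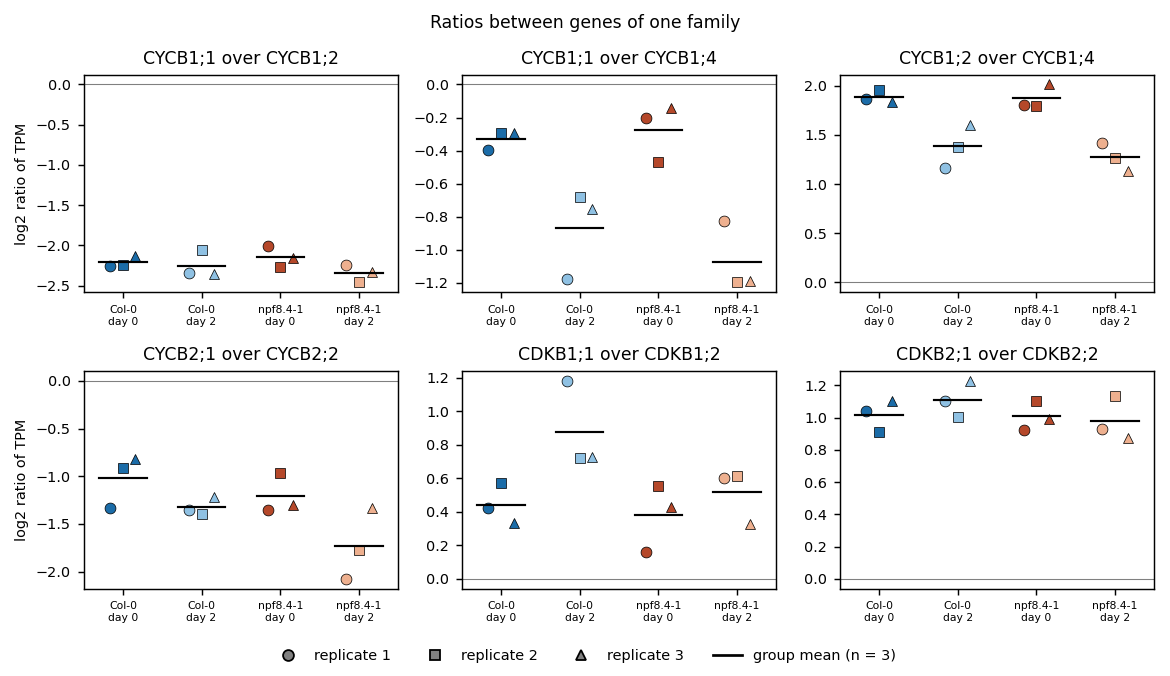
Log2 ratio of TPM for 6 pairs of genes of one family in every library, with 1 symbol per replicate and the group mean as a line. The ratios of CYCB1;1 and of CYCB1;2 to CYCB1;4 lie lower at day 2 in both genotypes, while that of the B2-type CDKs stays between 0.87 and 1.23.

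The libraries of a group differed together. Replicate 3 was the highest of its group for 10 of 10 genes in Col-0 at day 0, for 8 in Col-0 at day 2, for 9 in npf8.4-1 at day 0 and for 10 in npf8.4-1 at day 2. Replicate 1 was the lowest for 9, 10, 7 and 9 genes in the same order of groups. The highest CPM in a group was a median of 1.45, 1.61, 1.47 and 1.92 times the lowest over the 10 genes, in that order, where the median over all tested genes was 1.18, 1.27, 1.22 and 1.23. The median centred level of the 10 genes was -1.31, -0.96 and -0.42 in the 3 npf8.4-1 day 2 libraries, which was the widest group. Without replicate 3 at day 2 in either genotype, all 10 genes were still lower at an adjusted p under 0.05 (edgeR), with median log2 fold changes of -1.55 in Col-0 and -1.85 in npf8.4-1.

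**Figure D4:**
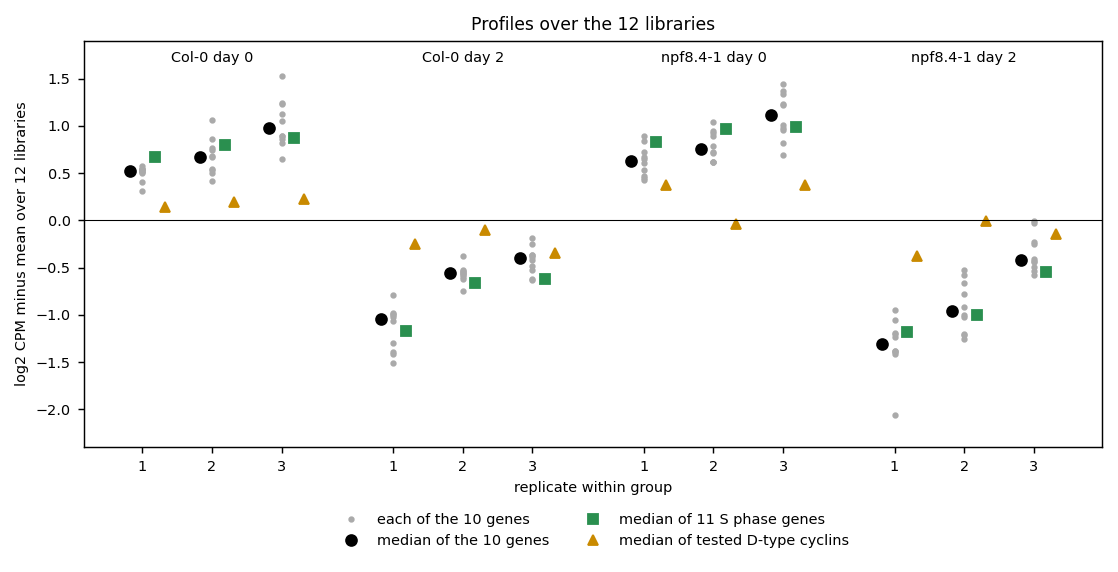
Log2 CPM of each library minus the mean over the 12 libraries, for each of the 10 genes (grey) and for the medians of the 10 genes, of 11 S phase genes and of the D-type cyclins. The median of the 10 genes lies between 0.52 and 1.12 at day 0 and between -1.31 and -0.40 at day 2, close to the S phase median and farther from 0 than the D-type median.

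Mutant and wild type were compared next at each day, which asks whether loss of NPF8.4 alters these genes. At day 0 none of the 10 genes passed the threshold (edgeR quasi-likelihood test), where 0.149% of tested genes did. None had an unadjusted p under 0.05, where 1450 of the 19416 tested genes did. The log2 differences ran from -0.15 for CYCB2;1 (95% interval -0.87 to 0.56) to 0.23 for CYCB1;1 (95% interval -0.38 to 0.83). For every gene the libraries of the genotypes overlapped. At day 2 again none passed, where 1.44% of tested genes did, and none had an unadjusted p under 0.05, where 2462 of the 19416 did. The differences ran from -0.40 for CYCB2;1 (95% interval -1.25 to 0.45) to 0.20 for CDKB1;2 (95% interval -0.45 to 0.85). For every gene the libraries of the genotypes overlapped at this day too. The share of all tested genes with such overlap was not counted, so it is not read as particular to the 10. The intervals show that differences of these sizes are not excluded with 3 pools a group.

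The interaction, which is how far the day 2 change of the mutant departs from that of the wild type, was not called for any of the 10 genes, none had an unadjusted p under 0.05 (edgeR), and 0% of tested genes were called. By edgeR 1759 of the 19416 genes had an unadjusted interaction p under 0.05, and by DESeq2 269 genes were called, none of them among the 10. The estimates were below 0 for 9 of 10 genes, from -0.46 (CYCB1;1, 95% interval -1.38 to 0.45) to 0.09 (CDKB1;2, 95% interval -0.79 to 0.96), with a median of -0.23. Over all tested genes, 9108 of 19416 estimates were below 0, with a median of 0.02. The 10 genes differed together between libraries, so their signs are not separate observations. Single libraries moved the median of the 10. It was -0.01 without replicate 1 of npf8.4-1 at day 2, -0.50 without replicate 3 of that group and -0.39 without replicate 3 of Col-0 at day 0. In a fit with the replicate number as a block, 4 of the 10 had an unadjusted interaction p under 0.05 (edgeR), and 0 were called. In that fit 2440 of the 19416 tested genes had such a p, and 43 were called.

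Genes that work with the 10 were lower as well, with exceptions in each list. The lists, too, were chosen with earlier results known. Beside the counts by list that follow, 30.4% of all tested genes were lower in Col-0 and 31.6% in npf8.4-1. The shares that were higher were 29.6% and 32.5%. Of 14 tested A- and B-type cyclins that are not among the 10, 12 were lower and 1 was higher in each genotype (edgeR, adjusted p under 0.05). CYCA2;3, an A-type cyclin that restrains the switch to endoreplication, fell by 1.17 on the log2 scale in Col-0 (SE 0.13, adjusted p = 5.68e-06) and by 1.55 in npf8.4-1. CYCB3;1 and CYCA3;1 had log2 fold changes of -1.39 (SE 0.20) and -1.84 (SE 0.28) in Col-0, and CYCA3;2 of -1.10 (SE 0.18). The member that rose was CYCB1;5, with 26 to 40 reads per Col-0 library at day 0 and 54 to 73 at day 2, a log2 fold change of 1.05 (SE 0.22, adjusted p = 0.00138, edgeR) in Col-0 and 1.29 in npf8.4-1.

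CDKA;1, the partner kinase used through the whole cycle, did not fall. Its log2 fold change was 0.20 (SE 0.06, adjusted p = 0.0147, edgeR) in Col-0 and 0.16 (SE 0.06, adjusted p = 0.0337) in npf8.4-1. The Col-0 call was lost without the third day 0 library (adjusted p = 0.0513), and the npf8.4-1 call was lost under 10 of 20 alternatives (adjusted p up to 0.0949). Of the CDK subunits that dock to these kinases, CKS2 fell by 0.87 (SE 0.24, adjusted p = 0.00711) in Col-0 and by 1.01 in npf8.4-1, while CKS1 had log2 fold changes of 0.11 and 0.16 that did not pass.

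The anaphase-promoting complex (APC/C) removes B-type cyclins at the end of mitosis. Of 7 genes for its activators and inhibitors, 6 were lower in Col-0 and 5 in npf8.4-1. The inhibitors UVI4 and OSD1 fell by 1.40 (SE 0.27, adjusted p = 0.000663, edgeR) and 1.53 (SE 0.30, adjusted p = 0.000769) on the log2 scale in Col-0. The mitotic activators CDC20.1 and CCS52B fell by 1.67 (SE 0.36) and 1.28 (SE 0.25). CCS52A1 and CCS52A2 are the activators linked to endoreplication. CCS52A1 had values of 0.15 in Col-0 and 0.23 in npf8.4-1, neither past the threshold, and CCS52A2 had -0.35 (adjusted p = 0.0293) and -0.06 (adjusted p = 0.706).

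Of 15 genes of the spindle checkpoint, the Aurora kinases and the kinetochore, 13 were lower and 1 was higher in Col-0. The mutant had 12 lower and 1 higher. Examples are BUBR1, a checkpoint protein, at -1.61 (SE 0.23, adjusted p = 8.57e-05, edgeR), CENP-C, a centromere protein, at -1.24 (SE 0.18, adjusted p = 0.000115) and the kinetochore protein gene AT3G54630 at -1.42 (SE 0.19, adjusted p = 3.68e-05) in Col-0. The protein kinase gene AT1G77720 had -1.28 (SE 0.18, adjusted p = 4.41e-05). SGO1, a protector of centromeric cohesion, was the one that rose, by 0.36 (SE 0.09, adjusted p = 0.00475).

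KNOLLE works with other proteins of the cell plate and of the phragmoplast, the microtubule array that guides it. Of 19 such genes, 16 were lower and 2 higher in Col-0. The mutant had 16 lower and 1 higher. POK2, a kinesin that marks the division plane, fell by 1.57 on the log2 scale (SE 0.20, adjusted p = 5.12e-05, edgeR) in Col-0, and MKK6, a kinase of the cytokinesis MAP kinase cascade, fell by 1.38 (SE 0.22, adjusted p = 0.000128). The chromatin protein 3xHMG-box1 fell by 1.88 (SE 0.30, adjusted p = 0.000291). The genes that rose in Col-0 encode direct partners of KNOLLE that also act in other membrane fusion. SNAP33, the SNARE protein that pairs with it, rose by 0.84 (SE 0.12, adjusted p = 5.42e-05) in Col-0 and had a value of 0.22 (adjusted p = 0.114) in npf8.4-1. KEU, the Sec1 protein that binds it, rose by 0.45 (SE 0.09, adjusted p = 0.000800) in Col-0 and by 0.39 (adjusted p = 0.00196) in npf8.4-1.

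Of 16 regulators of mitotic transcription and entry, 11 were lower and 1 was higher in each genotype. Among the MYB3R factors, MYB3R4, the activator of MSA genes, fell by 1.33 (SE 0.22, adjusted p = 0.000328, edgeR) in Col-0 and by 1.78 in npf8.4-1. MYB3R1 fell by 0.36 (SE 0.09, adjusted p = 0.00477) in Col-0, and the repressive MYB3R3 and MYB3R5 had values of -0.25 and -0.09 that did not pass. The atypical E2F factor DEL1 fell by 1.77 (SE 0.21, adjusted p = 1.42e-05) and the kinase WEE1, which holds CDKs inactive, by 1.61 (SE 0.19, adjusted p = 1.42e-05). RBR1, the retinoblastoma protein, fell by 0.72 (SE 0.08, adjusted p = 7.06e-06), and E2FA, which it binds, by 1.30 (SE 0.20, adjusted p = 0.000109). The CDK inhibitor LGO rose by 0.50 (SE 0.17, adjusted p = 0.0216) in Col-0 and by 0.67 in npf8.4-1, and its relative SIM had a value of 0.34 in Col-0 that did not pass.

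Genes of the preceding phases were set beside the 10. All 11 S phase genes, such as MCM6 of the replicative helicase at -1.64 (SE 0.15, adjusted p = 1.77e-06, edgeR), were lower in each genotype, with medians of -1.60 in Col-0 and -1.81 in npf8.4-1. The ribonucleotide reductase genes RNR1 and RNR2A had -1.87 (SE 0.19) and -1.41 (SE 0.09) in Col-0, and PCNA2, a sliding clamp of DNA polymerase, had -1.64 (SE 0.15). Of 10 D-type cyclins, which act at the entry into the cycle, 5 were lower in each genotype, beside 30.4% and 31.6% of all tested genes, with medians of -0.44 and -0.45. In npf8.4-1 this count was 3 without replicate 1 of that genotype at either day. CYCD6;1 and CYCD1;1 had -1.09 (SE 0.26) and -0.67 (SE 0.09) in Col-0, and CYCD3;1 and CYCD3;2 had -0.56 (SE 0.14) and -0.44 (SE 0.10). The difference between these lists and the 10 genes was not tested.

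**Figure D5:**
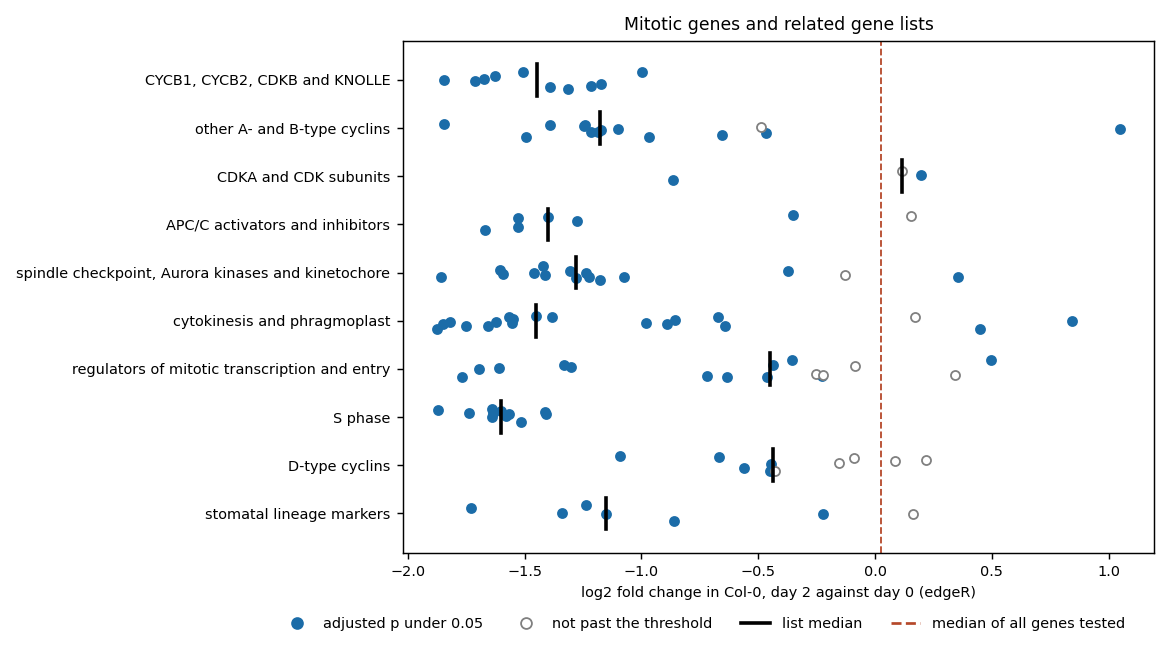
Log2 fold change in Col-0, day 2 against day 0, of each tested gene by list, filled where the adjusted p is under 0.05 (edgeR), with the median of the list as a bar and the median of all genes tested (0.02) as a dashed line. The medians of the mitotic, APC/C, spindle, cytokinesis and S phase lists lie between -1.60 and -1.28, and those of the regulators and the D-type cyclins at -0.45 and -0.44.

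Of 7 markers of the stomatal lineage, 6 were lower in Col-0 and 4 in npf8.4-1 (edgeR), beside 30.4% and 31.6% of all tested genes, and the other 3 did not pass in npf8.4-1. Their summed level was 99.3 to 122 CPM in Col-0 at day 0 and 58.1 to 61.1 CPM at day 2, and 99.9 to 113 CPM and then 64.0 to 77.2 CPM in npf8.4-1. SPCH, which starts the lineage, had log2 fold changes of -1.34 (SE 0.21, adjusted p = 0.000143) and -1.29 (SE 0.21, adjusted p = 0.000144), while FAMA, which acts in its last division, fell by 0.22 (SE 0.08, adjusted p = 0.0320) in Col-0 and had a value of 0.09 (adjusted p = 0.345) in npf8.4-1. The summed level of the 4 vascular markers was 105 to 156 CPM at day 0 and 261 to 337 CPM at day 2 over both genotypes. Of these 4, 2 were higher in Col-0 and 3 in npf8.4-1 (edgeR, adjusted p under 0.05), beside 29.6% and 32.5% of all tested genes. Their log2 fold changes ran from 0.005 to 2.44 in Col-0 and from 0.01 to 2.97 in npf8.4-1. The part of a change in cell types in the lower mitotic levels was not tested.

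The 10 other genes whose profile over the 12 libraries was closest to the median profile of the mitotic genes had a mean absolute distance of 0.05 to 0.07 on the log2 scale. The mitotic genes themselves lay at a median of 0.16 from it, and the other tested genes at a median of 0.81. The profile was built from the mitotic genes, so their closeness to it was set in part by construction. The 10 closest genes were picked from 19406, so their distances cannot be weighed against that of the mitotic genes. The closest was the kinesin ATK5, with log2 fold changes of -1.37 in Col-0 and -1.80 in npf8.4-1. Next came AT3G10310, AT2G28620 and the kinesin motor gene AT1G72250, then SMC2, a condensin subunit at -1.25 and -1.65. The rest were AT4G21820, MYB3R4, the protein kinase gene AT2G20635, the kinesin gene AT3G20150 and the microtubule motor gene AT2G37420. Of these 10, MYB3R4 was the one on a list used above.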

How the data were processed

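The authors deposited 1 table per library, and per the file headers each holds a count of exon reads, a TPM value and an RPKM value for every gene. Per the submitters' processing notes, reads came from bcl2fastq 2.17.1.14 and coordinates refer to TAIR10. Aligner, counter and strand setting: not given in the sources used here. Per the labels' protocols, RNA came from TRIzol extraction and a stranded mRNA kit. Groups follow the sample titles, and p-values measure the spread between pools of plants. No libraries of a group agreed within sampling noise.

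Counts were tested with edgeR 4.0.16 in R 4.3.3, in a single fit with 4 group means over the 12 libraries (TMM scaling, filterByExpr, robust dispersions). Benjamini-Hochberg adjustment ran over 19416 genes, with a threshold of 0.05. SE comes from the quasi-likelihood statistic. CPM are counts scaled by the TMM-corrected total. The authors' TPM values served for levels between genes, and the deposited RPKM values, a constant multiple of TPM within each library for these genes, carry the same order by construction. Precision is limited by read number, and PCR duplicates could not be told from separate molecules. Promoter windows were read with Python 3.11.15 and pandas 2.3.3. DESeq2 1.42.0 gave an alternative.

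The mitotic genes and all lists were chosen with earlier results of these data known. From each list, up to 4 genes with the smallest p among those called in Col-0 were named, and any gene of the regulator and CDKA lists could be. CYCB1;5, CCS52A1, CCS52A2, SGO1, KEU and the 2 stomatal markers were named after their values were seen. Profile likeness was the mean absolute distance of centred log2 CPM (prior count 2) over the 12 libraries. Same-numbered libraries had correlations of their deviations over 0.1 in 6 of 12 pairs, so the numbers were not taken to pair samples.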

Additional observations from a re-analysis of the deposited data

How the results depend on the processing

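All 10 genes stayed lower at an adjusted p under 0.05 in both genotypes under each of the 20 alternatives run (size factors of DESeq2, library totals alone, the DESeq2 test, no filter, a filter of 1 CPM, the compared groups only, the replicate block, each library left out, and replicate 3 left out of both day 2 groups). The highest adjusted p was 0.0164, for CYCB1;4 in Col-0 without its first day 2 library. None of the 10 was called between genotypes under these 20, or for the interaction under the 19 that apply to it, which leave out the fit of the compared groups only. The cause of the differences below was not tested.

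With the replicate number as a block (replicate block), 10 genes were lower in each genotype and 0 were called in the other comparisons. The interaction of KNOLLE was then -0.39 (SE 0.15, unadjusted p = 0.0251, adjusted p = 0.307, edgeR). Of the 10, 4 had an unadjusted interaction p under 0.05, beside 2440 of the 19416 tested genes. Between genotypes at day 2, 1 of the 10 had one, beside 3059 of the 19416. Same-numbered correlations ran from -0.17 to 0.42.

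Over all genes, calls between genotypes moved more. At day 0 edgeR called 29 genes, 12 to 37 with a library left out and 173 with the block, and DESeq2 called 232. At day 2 these numbers were 279, 29 to 375, 615 and 784, and 44 without replicate 3 in both day 2 groups and 130 in the compared groups only. The interaction count was 0, up to 6 with a library left out, 43 with the block and 269 by DESeq2. Without the third npf8.4-1 library of day 2, the genotype differences of the 10 genes at day 2 ran from -0.90 to -0.15, and without the first they ran from -0.09 to 0.46. Those at day 0 ran from 0.12 to 0.45 without the third Col-0 library of day 0. Calls of single list genes were followed only for those named by the smallest p in Col-0. Of these, CDKA;1 lost its call as given in the results, and CYCD6;1 in npf8.4-1 lost its call in 2 alternatives (adjusted p up to 0.0572). SNAP33 in npf8.4-1 gained one in 2. The calls of CYCB1;5, CCS52A2, SGO1, KEU, MYB3R1, MYB3R4, LGO, SPCH and FAMA were not followed under the alternatives. The number of D-type cyclins lower in npf8.4-1 was 3 in place of 5 without the first library of either day. The depth limits CYCB2;1 most, with as few as 19 reads.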

Other observations

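The MSA core was also counted upstream of the other listed genes. It was in the 300-base window of 8 of 15 other A- and B-type cyclins, 11 of 15 spindle checkpoint, Aurora kinase and kinetochore genes, 12 of 19 cytokinesis genes 4 of 7 APC/C regulators and 8 of 16 regulators of mitotic transcription and entry. It was in 1 of 11 S phase genes, in 1 of 10 D-type cyclins and in 0 of 3 genes of CDKA and the CDK subunits, beside 23.4% of all windows. The S phase genes held TTTCCCGC in 3 of 11 windows and TTTGGCGC in 2 of 11. TTTCCCGC was also in 1 of 19 cytokinesis genes and 1 of 16 regulators, and TTTGGCGC in 1 of 10 D-type cyclins, beside 0.689% and 0.419% of all windows. These counts describe letters in a fixed window and were given no test.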
